A study of Mus musculus with 12 samples.

Results

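The proteasome is the large protease that degrades ubiquitin-tagged proteins. The genes described here are the 51 protein-coding mouse genes whose symbol begins with Psma to Psmg followed by a number, of 21887 protein-coding genes on chromosomes 1 to 19, X and Y in RefSeq. By role, 7 encode core alpha subunits and 7 core beta subunits, 5 are immuno-, thymus- or testis-specific core subunits, 6 are ATPases and 11 are non-ATPase subunits of the regulatory particle, 6 are activators or an inhibitor, 7 are assembly chaperones, and 2 match by symbol but encode no subunit. Membership was set by symbol and not by a measured value, though the gene set was chosen with earlier results of these data known.

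Accessible chromatin was measured by ATAC-seq, in which a transposase cuts open DNA, in neurons of the infralimbic prefrontal cortex (ILPFC) that were sorted for the activity-induced protein Arc and the neuronal nuclear protein NeuN. All mice were adult male C57BL/6 animals of 10 to 12 weeks, and all had been fear-conditioned with 3 tones that each ended in a foot shock. In the extinction group (EXT), 60 tones without shock followed a day later in a second context, and in the retention control group (RC) mice spent as long in that context with no tone. Tissue was taken directly afterwards, 5 mice were pooled per library and 50000 sorted cells were used. An untrained group was not analysed here, so both groups share the fear conditioning. Complete peak lists were available for EXT replicate 1, EXT replicate 2 and RC replicate 3, with 80735, 123375 and 97961 peaks from 65.0 M, 57.7 M and 73.8 M tags. The list of RC replicate 1, as held here, ends on chromosome 1 after reaching a single proteasome gene, Psmd1, and that of RC replicate 2 ends before any. EXT replicate 3, labelled as dropped for low yield, and 6 lncRNA capture libraries were not analysed here.

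In the assembled proteasome, a barrel-shaped core of alpha and beta rings holds the proteolytic sites. The regulatory particle caps the barrel, where its non-ATPase subunits bind and remove ubiquitin and its ring of ATPases unfolds the substrate and feeds it in. Interferon-inducible immunosubunits replace the catalytic beta subunits in immune cells, and further variants are made in thymic epithelium and testis. In neurons, protein degradation by the proteasome is known to be needed for lasting synaptic change and for the destabilisation of memories after retrieval.

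Promoter sequences of 43 of the 51 genes were matched in RefSeq (build GRCm38.p6), each running from 250 bases before to 50 bases after an annotated start. Of these, 5 are shown because the differences between proteasome genes described below lie in them. They include both annotated promoters of the core gene Psma6, of which a peak touched the inner in every complete list and the outer in none. The promoter of the regulatory gene Psmd12 was touched by a peak in every complete list. The others are those of the immunosubunit genes Psmb9 and Psmb10. A peak touched the Psmb9 promoter in every complete list, but held its start only in EXT replicate 2. No complete list had a peak that touched the Psmb10 promoter. Capitals mark matches, on either strand, to the 6 motifs searched, which are named further below. The outer Psma6 promoter lies at chr12:55383972-55384271 and the inner one at chr12:55398575-55398874, both on the plus strand. The Psmd12 promoter is at chr11:107479278-107479577 on the plus strand, the Psmb9 promoter at chr17:34187281-34187580 and the Psmb10 promoter at chr8:105938343-105938642, both on the minus strand. The Psmb10 promoter holds no match and so has no capitals.
Psma6 outer promoter: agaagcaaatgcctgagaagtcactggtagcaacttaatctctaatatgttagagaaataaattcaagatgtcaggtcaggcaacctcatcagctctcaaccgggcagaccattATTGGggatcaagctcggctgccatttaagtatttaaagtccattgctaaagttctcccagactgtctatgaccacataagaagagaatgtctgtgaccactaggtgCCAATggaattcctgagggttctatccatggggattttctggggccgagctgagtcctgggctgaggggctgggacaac
Psma6 inner promoter: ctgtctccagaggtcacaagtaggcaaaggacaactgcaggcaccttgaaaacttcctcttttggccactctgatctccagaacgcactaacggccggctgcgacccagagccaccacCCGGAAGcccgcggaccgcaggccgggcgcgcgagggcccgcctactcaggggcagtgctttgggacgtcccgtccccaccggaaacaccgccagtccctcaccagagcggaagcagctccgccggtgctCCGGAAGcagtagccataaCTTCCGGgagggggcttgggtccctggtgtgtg
Psmd12 promoter: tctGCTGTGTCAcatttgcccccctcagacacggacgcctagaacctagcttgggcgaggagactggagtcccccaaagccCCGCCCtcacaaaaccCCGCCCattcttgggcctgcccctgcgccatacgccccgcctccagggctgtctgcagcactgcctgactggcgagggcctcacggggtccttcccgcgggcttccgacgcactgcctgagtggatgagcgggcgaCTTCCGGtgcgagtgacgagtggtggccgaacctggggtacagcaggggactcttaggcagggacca
Psmb9 promoter: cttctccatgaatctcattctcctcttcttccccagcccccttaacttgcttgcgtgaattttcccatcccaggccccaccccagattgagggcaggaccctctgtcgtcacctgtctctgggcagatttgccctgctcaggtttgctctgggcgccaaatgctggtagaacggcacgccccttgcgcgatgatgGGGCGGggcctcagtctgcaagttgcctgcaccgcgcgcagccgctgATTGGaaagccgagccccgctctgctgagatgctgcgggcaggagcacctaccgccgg
Psmb10 promoter: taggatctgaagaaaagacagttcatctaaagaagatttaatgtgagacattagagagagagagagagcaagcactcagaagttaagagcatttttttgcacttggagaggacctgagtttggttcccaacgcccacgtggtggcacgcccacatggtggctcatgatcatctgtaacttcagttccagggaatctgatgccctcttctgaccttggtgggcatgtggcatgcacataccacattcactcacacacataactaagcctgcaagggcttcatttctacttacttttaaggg

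Nearly all proteasome genes had accessible chromatin at a gene end in these neurons. A gene is called open here if any peak reaches, by 1 bp or more, into the 1 kb before or after its lower or upper annotated end. In EXT replicate 1, 46 of 51 proteasome genes were open (90.2%, exact 95% interval 78.6 to 96.7%), against 53.3% of all protein-coding genes. In EXT replicate 2, 48 were open (94.1%, 83.8 to 98.8%), against 61.1% of all protein-coding genes, and in RC replicate 3 also 48 (94.1%, 83.8 to 98.8%), against 56.1%. The intervals cover counting error only. Across the 3 lists the proteasome genes stood 36.0 ± 2.66 percentage points above all protein-coding genes (SD, n = 3 lists).

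The same genes were open in all lists. Of the 51, 46 (90.2%) were open in all 3 lists, against 49% of all protein-coding genes, and 3 (5.88%) were open in none, against 35.5%. Those 3 were Psma6, Psma8 and Psme2b. The remaining 2, Psmb7 and Psmb10, were open in EXT replicate 2 and RC replicate 3 but not in EXT replicate 1, a pattern shown by 4.69% of all protein-coding genes.

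Between extinction and its control, the counts of proteasome genes open in a single group were 0, near the small background shares. None was open in both EXT lists and closed in RC replicate 3, a pattern of 2.01% of all protein-coding genes. None was open in RC replicate 3 alone, a pattern of 1.06%. None was open in EXT replicate 1 alone, in EXT replicate 2 alone, or in EXT replicate 1 and RC replicate 3 without EXT replicate 2, patterns of 1.03, 5.4 and 1.27% of all protein-coding genes. The share open averaged 92.2 ± 2.77% in EXT (SD, n = 2 libraries) and was 94.1% in RC (n = 1), a difference of -1.96 points that is smaller than the spread between the EXT libraries. The sign of this difference turned, to 1.96 points with a stricter list and to 0.98 with lists of equal length. No test between EXT and RC was run, since an exact permutation of 2 libraries against 1 cannot give a two-sided p below 0.667. In pools of sorted cells, fewer open nuclei and less access per nucleus cannot be told apart.

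**Figure D1:**
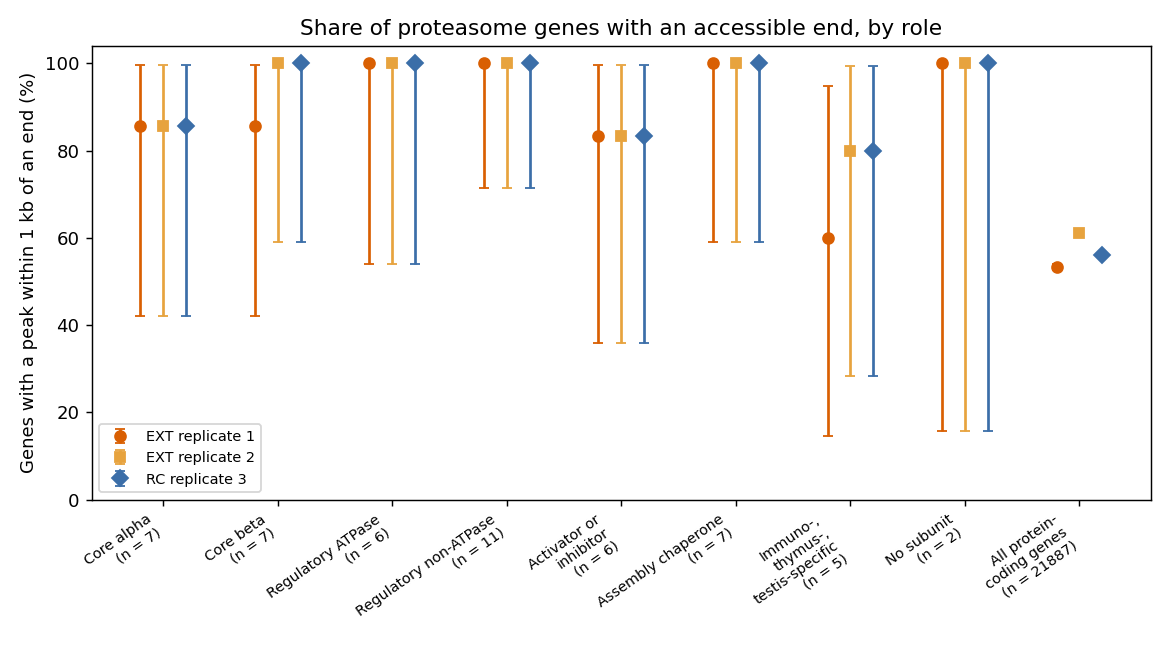
Share of genes with a peak no further than 1 kb from either gene end, in percent, by role of the gene product and for all protein-coding genes. Circles are EXT replicate 1, squares EXT replicate 2 and diamonds RC replicate 3, and bars are exact 95% intervals. Both regulatory particle classes and the assembly chaperones reach 100% in each list, and all protein-coding genes lie between 53.3 and 61.1%.

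By role, the regulatory particle genes with a Psmc or Psmd symbol were all open: each of the 17 had an end peak in each of the 3 lists (exact lower limit 80.5%). All 7 assembly chaperone genes did too. Of the 14 core genes, 12 were open in EXT replicate 1, 13 in EXT replicate 2 and 13 in RC replicate 3. Of the 5 specific genes, 3, 4 and 4 were open in the same order. Core minus regulatory particle was -9.52 ± 4.12 points and core minus specific subunits 17.1 ± 7.42 points (SD, n = 3 lists). These gaps rest on 1 or 2 genes each. With a window around the 5′ end alone, the gap between core and specific genes was -0.758 points. That setting holds only genes with known strand. Among others, it leaves out Psma8, which was closed in every list, and the core gene Psmb7, closed in EXT replicate 1.

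The best end peak of a gene was the one with the highest -log10 p, and those of proteasome genes were wider in the median than those of protein-coding genes at large, with no common direction in strength. Fold enrichment is the authors' ratio of reads at the summit to the local background, and the percentile is the rank of a peak by -log10 p within its own list, where 100 is the top. Ranks from lists of different lengths show no change between them. In EXT replicate 1 the median best peak of the 46 open proteasome genes was 437.5 bp wide, with a fold of 4.66 at percentile 71.3, against 406 bp, 5.06 and 77.6 for all open protein-coding genes. In EXT replicate 2 the medians were 601 bp, 8.24 and 89.5, against 539 bp, 7.11 and 85.7. In RC replicate 3 they were 535.5 bp, 5.18 and 77.6, against 449 bp, 5.49 and 80.5. Width was thus above the median of all genes in each list, though in EXT replicate 1 by only 3.5 bp with a stricter list. Fold and rank were above the median of all genes in EXT replicate 2 and below it in EXT replicate 1 and RC replicate 3.

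Few of these best peaks were narrow. Peaks under 200 bp served 13.0, 0.0 and 12.5% of open proteasome genes in EXT replicate 1, EXT replicate 2 and RC replicate 3, against 21.6, 13.2 and 21.2% of all open protein-coding genes. The top of a list, above percentile 90, held the best peak of 5 proteasome genes in EXT replicate 1 (10.9%, against 28.3% of all), 22 in EXT replicate 2 (45.8%, against 41.5%) and 13 in RC replicate 3 (27.1%, against 34.5%). The lower part of a list, below percentile 50, held 19.6, 4.17 and 18.8%, against 19.7, 15.7 and 20.3% of all. Peaks of 1000 bp or more served 0, 3 and 2 proteasome genes, against 3.35, 7.06 and 4.71% of all open protein-coding genes. The widest belonged to the ATPase gene Psmc5, at 1190 bp in EXT replicate 2 and 1076 bp in RC replicate 3, and to the core gene Psma1, at 1100 bp and 1073 bp in the same lists.

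**Figure D2:**
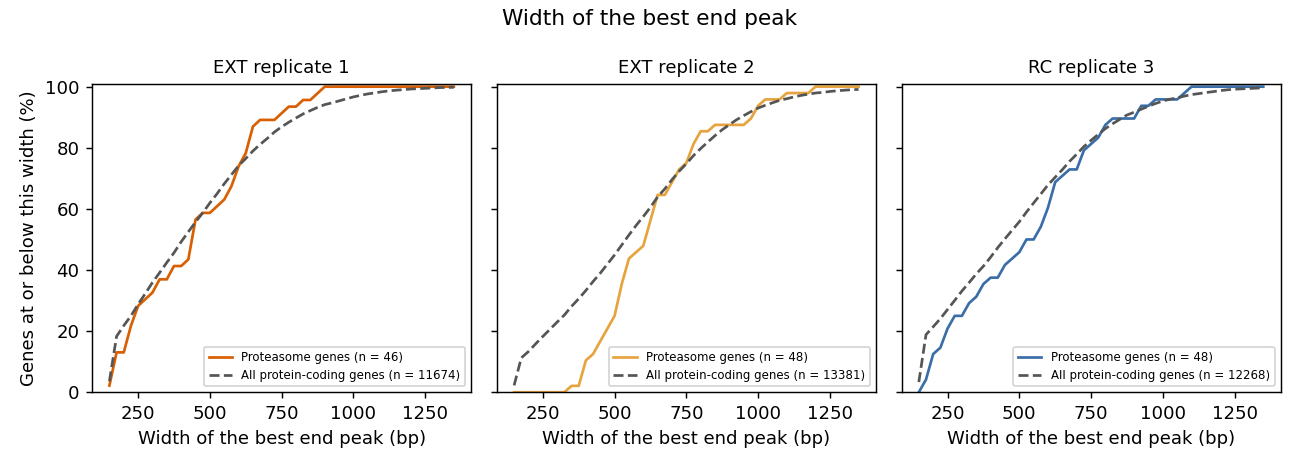
Cumulative share of open genes, in percent, against the width of their best end peak in bp, with 1 panel per library. Solid lines are proteasome genes and dashed lines all protein-coding genes. The proteasome line starts later in EXT replicate 2, where no proteasome gene had a best peak under 200 bp.

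The core alpha genes form the outer rings of the barrel and its gate. Psma5 had the highest mean rank among them, with folds of 6.12 in EXT replicate 1, 12.53 in EXT replicate 2 and 10.04 in RC replicate 3, at percentiles 85.2, 97.2 and 97.6. Psma3 had the lowest, with folds of 2.90, 4.28 and 3.30 at percentiles 34.5, 63.7 and 53.1. These Psma3 values belong to peaks at the annotated gene end, which lies beside a lysine tRNA gene, while its only matched RefSeq start lies 5340 bp inside the gene. At that inner start Psma3 had peaks with folds of 3.83, 8.94 and 4.77 at percentiles 61.4, 94.9 and 76.9, above the gene end in each list. Psma1, Psma2, Psma4 and Psma7 were open in all 3 lists, with best-peak percentiles from 43.1 for Psma4 in EXT replicate 1 to 97.8 for Psma1 in EXT replicate 2.

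Psma6 was closed at its annotated ends yet open inside the gene. The gene spans chr12:55384222-55418459, and no list had a peak within 1 kb of either end. Its second RefSeq start lies 14603 bp inside the gene, within a peak in every list, with widths of 450, 304 and 419 bp, folds of 6.46, 9.53 and 4.91, and percentiles of 81.3, 85.1 and 58.2 in EXT replicate 1, EXT replicate 2 and RC replicate 3. The summits lay 0, 21 and 19 bp from that start. The 2 promoters printed above differ in base composition: the outer holds 3 CpG dinucleotides at 46.7% GC and the inner 22 at 65.0% GC. Counted by RefSeq starts in place of gene ends, all 11 core genes with a matched start were open in each list. The gap between core and regulatory particle was then 0.0 points. This count leaves out the core genes Psmb1, Psmb2 and Psmb7, which have no matched start. Of these, Psmb7 had no end peak in EXT replicate 1, so the gaps by starts and by gene ends do not cover the same genes.

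The core beta genes form the inner rings, of which Psmb5, Psmb6 and Psmb7 encode the catalytic subunits. Psmb3, a non-catalytic subunit, ranked highest, with folds of 5.57, 8.39 and 6.77 at percentiles 95, 98.7 and 98.2 in EXT replicate 1, EXT replicate 2 and RC replicate 3. Psmb5 ranked lowest, with folds of 3.36, 5.04 and 2.78 at percentiles 42.3, 69.4 and 16.3. In EXT replicate 1 the Psmb5 peak of 201 bp lay upstream and did not include the start, whereas in EXT replicate 2 and RC replicate 3 peaks of 452 and 317 bp did.

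The other 2 catalytic genes differed from Psmb5 and from each other. Psmb6 had folds of 4.05, 10.22 and 6.78 at percentiles 58.1, 96.1 and 86.6. Psmb7 had no end peak in EXT replicate 1, where the nearest peak lay 2069 bp from its upper end, and had folds of 4.60 in EXT replicate 2 and 4.19 in RC replicate 3, at percentiles 61.5 and 57.5. Psmb1, Psmb2 and Psmb4 were open in all 3 lists, with best-peak percentiles from 30.1 for Psmb4 in RC replicate 3 to 95.8 for Psmb2 in EXT replicate 2.

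The immuno-, thymus- and testis-specific genes had narrower and lower-ranked end peaks than the core. Their median width was 207 bp in EXT replicate 1, 523.5 bp in EXT replicate 2 and 201.5 bp in RC replicate 3, against 569, 550 and 504 bp for the core. Their median percentile was 45.2, 73.7 and 39.9, against 64.5, 89.1 and 80.8 for the core. With 3 to 4 open genes per list these medians are descriptions only.

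At the start itself the specific genes also stood apart from the rest. A RefSeq start lay inside a peak for 36 of 43 matched proteasome genes in EXT replicate 1 (83.7%), 40 in EXT replicate 2 (93.0%) and 38 in RC replicate 3 (88.4%), against 39.5, 49.4 and 41.7% of all protein-coding genes. Among the 39 that are not specific subunits the start lay inside a peak for 36, 38 and 38. Among the 4 specific genes with a matched start it did so for 0, 2 and 0, and the 2 in EXT replicate 2 were Psmb9 and Psmb11. A count of 0 of 4 has an exact upper limit of 60.2%. Counted by any touched base of the promoter window, the split was smaller. A peak touched the window for 40, 40 and 39 of the 43, against 45, 53 and 46.8% of all protein-coding genes, for 38 of the 39 in each list, and for 2, 2 and 1 of the 4 specific genes.

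**Figure D3:**
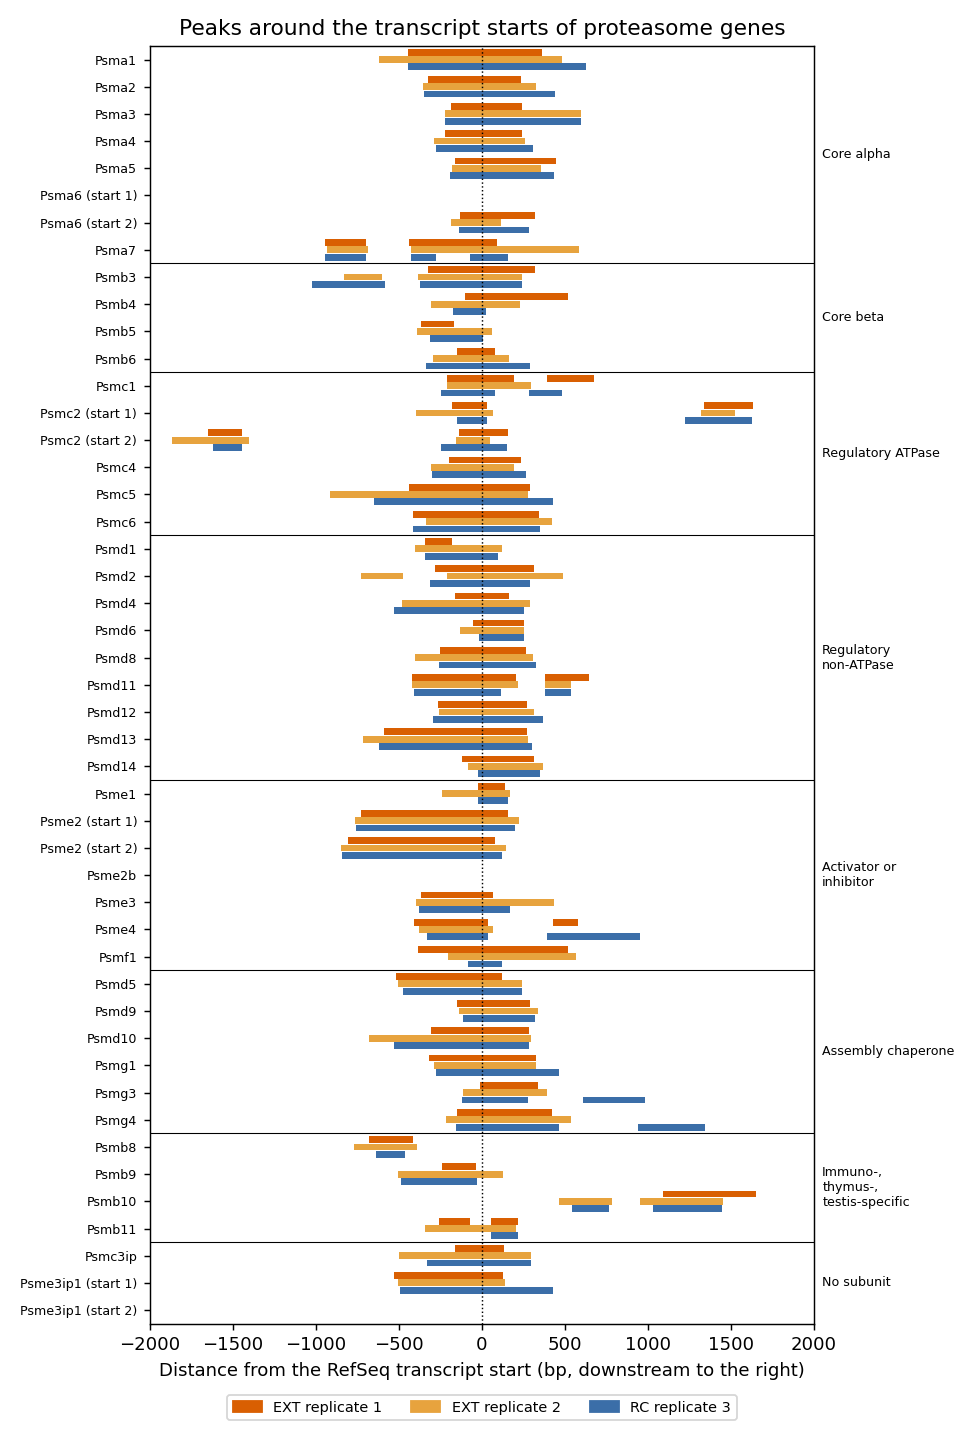
Peaks within 2 kb of each matched RefSeq transcript start of the proteasome genes, by distance in bp with downstream to the right. In each row the top bar is EXT replicate 1, the middle bar EXT replicate 2 and the bottom bar RC replicate 3, and genes with several starts have a row for each. Most bars cross 0, while those of Psmb8 lie upstream and those of Psmb10 downstream of it.

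Psmb9 and Psmb8, the immune counterparts of Psmb6 and Psmb5, lie in the major histocompatibility complex on chromosome 17 beside the peptide transporter genes Tap1 and Tap2. Psmb9 and Tap1 diverge from starts 226 bp apart, and a single peak lay in the windows of both in each list. This peak was 207 bp wide with a fold of 3.70 in EXT replicate 1, 636 bp with 10.39 in EXT replicate 2 and 455 bp with 4.48 in RC replicate 3, at percentiles 37.0, 92.9 and 51.1. EXT replicate 2 was thus far above EXT replicate 1, and RC replicate 3 lay between the EXT libraries. In EXT replicate 1 and RC replicate 3 the peak lay upstream of the Psmb9 start.

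Psmb8 had no peak at its start in any list. Its end peak lay just beyond the upper end of Tap1, with summits 548, 547 and 583 bp upstream of the Psmb8 start, widths of 261, 382 and 179 bp and folds of 4.30, 5.48 and 3.47 in EXT replicate 1, EXT replicate 2 and RC replicate 3. The percentiles were 56.3, 62.7 and 28.6. These peaks touched no base of the 300 bp promoter.

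**Figure D4:**
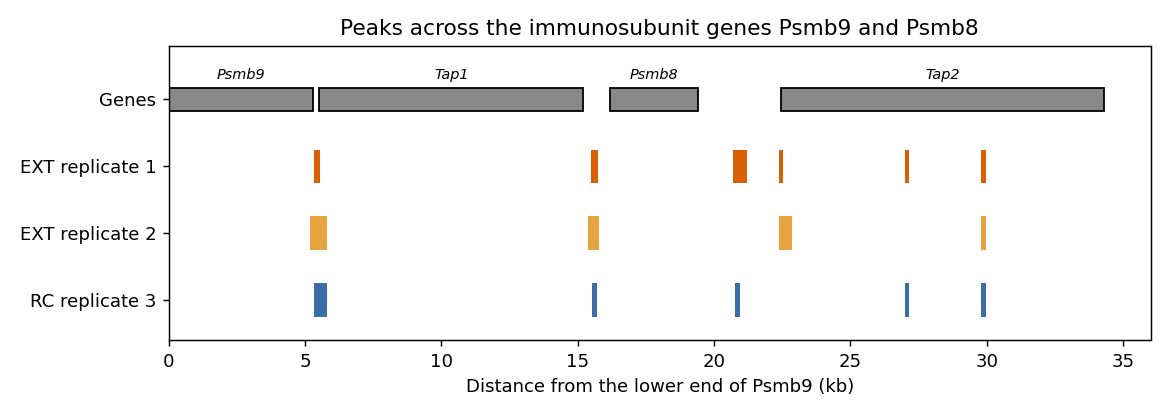
Genes (grey) and peaks from Psmb9 to Tap2, by distance in kb from the lower end of Psmb9, with EXT replicate 1, EXT replicate 2 and RC replicate 3 in separate rows. Each list has a peak between Psmb9 and Tap1 and another between Tap1 and Psmb8.

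Psmb10, the immune counterpart of Psmb7, was closed at its promoter in all 3 lists. EXT replicate 1 had no end peak, since its peak inside the gene began 1012 bp from the lower end, just beyond the window. EXT replicate 2 had a best peak of 500 bp with a fold of 5.51 at percentile 84.6, and RC replicate 3 one of 224 bp with a fold of 2.11 at percentile 2.9. Both lay in the gene body, with summits 1236 and 741 bp downstream of the start, and they are different peaks. The farther one spanned 1093 to 1652, 950 to 1449 and 1033 to 1445 bp downstream in EXT replicate 1, EXT replicate 2 and RC replicate 3. Only in EXT replicate 2 did it cross into the 1 kb window. The nearer one lay at 465 to 785 bp in EXT replicate 2 and 541 to 764 bp in RC replicate 3. These percentiles thus do not compare the same peak. The closed promoter printed above holds 3 CpG dinucleotides at 45.7% GC.

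Psmb11, made in thymic epithelium, had end peaks of 160 bp with a fold of 3.56 in EXT replicate 1, 547 bp with 3.78 in EXT replicate 2 and 160 bp with 4.68 in RC replicate 3, at percentiles 45.2, 43.8 and 62.6. The peaks of EXT replicate 1 and RC replicate 3 had identical bounds. Psma8, the testis counterpart of Psma7, was closed in every list, with the nearest peaks 10488, 20577 and 20526 bp away. Of 4 male germ cell marker genes 1 was open in each list, and of 2 thymic epithelium markers 0, 2 and 1 were open. Over all protein-coding genes the shares open were 53.3, 61.1 and 56.1%.

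The 6 ATPases form the ring of the regulatory particle that unfolds substrates. Psmc3 ranked highest, with folds of 4.92, 10.46 and 7.11 at percentiles 76.2, 95.9 and 92.4 in EXT replicate 1, EXT replicate 2 and RC replicate 3. Psmc1 ranked lowest, with folds of 2.51, 5.89 and 3.62 at percentiles 29.8, 89.7 and 58.7, of which the EXT values belong to peaks beyond the 3′ end. At the Psmc1 start the folds were 2.66, 3.58 and 3.62 at percentiles 24.0, 49.6 and 58.7. The best end peaks of the 6 genes had a median percentile of 67.9 in EXT replicate 1, 96.0 in EXT replicate 2 and 72.5 in RC replicate 3. At the start of Psmc2 at the gene end, folds were 3.97, 8.70 and 2.94 at percentiles 59.5, 88.9 and 28.0, while its best peak in EXT replicate 2, with a fold of 12.13, lay near the 3′ end.

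Of the 11 non-ATPase genes, Psmd11, a lid subunit, ranked highest, with folds of 6.94, 10.17 and 8.25 at percentiles 93.7, 96.0 and 96.8. Psmd12, another lid subunit, whose promoter is printed above, had folds of 7.43, 10.89 and 6.68 at percentiles 93.2, 96.1 and 91.0. Its start lay inside a peak in each list. Psmd14, the deubiquitinase that removes ubiquitin chains, ranked lowest, with folds of 4.30, 7.41 and 3.33 at percentiles 57.9, 77.2 and 30.5. The ubiquitin receptor gene Psmd4 reached percentiles 87.4, 96.7 and 96.6. Psmd2, Psmd3, Psmd6, Psmd7, Psmd8 and Psmd13 were open in all 3 lists as well, with percentiles from 46.9 for Psmd6 in RC replicate 3 to 97.5 for Psmd3 in EXT replicate 2.

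Psmd1, a scaffold of the regulatory particle, was the only proteasome gene that the truncated list of RC replicate 1 reached. Its end peak was 162 bp wide at 3.33-fold in EXT replicate 1 and 522 bp at 4.53-fold in EXT replicate 2, against 752 bp at 6.35-fold in RC replicate 1 and 438 bp at 4.05-fold in RC replicate 3. The percentiles among the chromosome 1 peaks that these 4 lists share in extent were 51.6 and 70.5 in EXT and 83.6 and 63.2 in RC. The EXT and RC libraries overlapped in width, fold and percentile.

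Among the activators and the inhibitor, Psme1 and Psme2 encode the interferon-inducible cap. Psme2 ranked highest, with widths of 887, 990 and 962 bp, folds of 4.70, 8.59 and 7.10 and percentiles 84.3, 97.4 and 96.3 in EXT replicate 1, EXT replicate 2 and RC replicate 3. Its peak also reached the divergent gene Rnf31. Psme1 had folds of 6.47, 5.17 and 6.72 at percentiles 92.2, 74.5 and 92.0. The 2 cap genes were open at ranks above the median specific subunit in each list.

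Psmf1, which encodes a proteasome inhibitor, ranked lowest, with folds of 3.25, 5.82 and 2.71 at percentiles 42.7, 77.3 and 20.3. These peaks lay at the 3′ end of Psmf1, within 1 kb also of the neighbouring gene Tmem74b. At the only matched RefSeq start, 2889 bp inside Psmf1, folds were 2.90, 5.22 and 3.87 at percentiles 18.1, 63.6 and 50.2. Psme3, which encodes a nuclear cap, and Psme4, which encodes a large single-chain activator, were open in all lists at percentiles from 34.8 to 77.2. Psme2b, a copy of Psme2 by name, was closed, with no peak nearer than 73934, 72997 and 70599 bp. The sources used here do not say how reads that match several places were treated, so its value is uncertain.

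The assembly chaperones help to build the core and the base and leave the finished particle. Psmg1, which pairs with Psmg2 on the alpha ring, ranked highest, with folds of 6.63, 8.19 and 6.46 at percentiles 84.6, 95.4 and 95. In EXT replicate 1 that best peak lay beyond the 3′ end, and the peak at the Psmg1 start had a fold of 4.08. Psmg3, which pairs with Psmg4, ranked lowest, with folds of 2.85, 2.90 and 3.78 at percentiles 27.2, 25.8 and 54.6. Psmg2, Psmg4, Psmd5, Psmd9 and Psmd10 lay between percentile 49.4 for Psmd10 in EXT replicate 1 and 94.7 for Psmd5 in EXT replicate 2.

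The 2 genes that encode no subunit were open in all lists. Psme3ip1, named for binding Psme3, had the highest end peaks of all 51 genes, with folds of 11.35, 17.56 and 16.12 at percentiles 99.4, 99.8 and 99.8, and shared them with the divergent gene Rspry1. Psmc3ip, a meiotic recombination factor, had folds of 3.53, 4.88 and 5.30 at percentiles 57.1, 72.9 and 85.8.

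**Figure D5:**
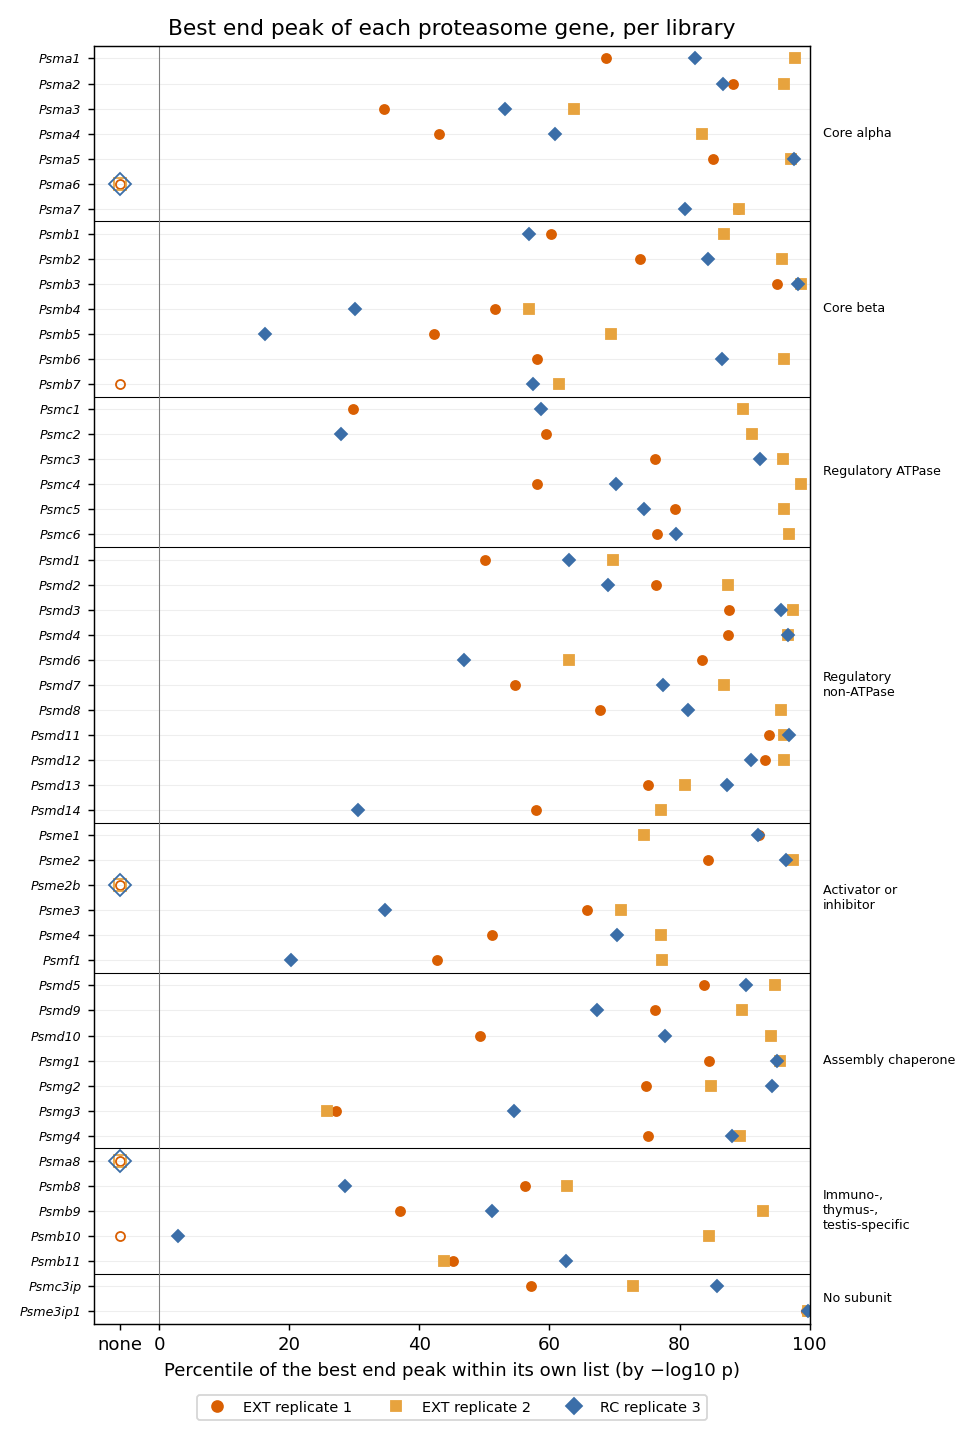
Percentile of the best end peak of each proteasome gene within its own list, by -log10 p, with genes grouped by role. Circles are EXT replicate 1, squares EXT replicate 2 and diamonds RC replicate 3, and open symbols under "none" mark a list without an end peak. Psme3ip1 lies at 99.4 or above in each list, and Psma6, Psma8 and Psme2b have no end peak in any.

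Peaks sat at starts and not at gene ends in general. A peak within 1 kb of the 5′ end was found for 39, 40 and 40 of 43 proteasome genes with known strand in EXT replicate 1, EXT replicate 2 and RC replicate 3 (90.7, 93.0 and 93.0%), against 50, 56.4 and 52% of all protein-coding genes. At the 3′ end the counts were 5, 9 and 6 (11.6, 20.9 and 14.0%), against 11.6, 17.1 and 14.1%, so the proteasome genes stood near all genes there. Where a start had a peak, its summit lay within 250 bp for 37 of 43 starts, 40 of 44 and 41 of 44, against 65.2, 69.2 and 66.2% of all starts with a peak. Between lists the best peaks of the same gene overlapped for 42 of 46 genes in EXT replicate 1 and EXT replicate 2 (91.3%, against 86.6% of all protein-coding genes open in both). The counts were 43 of 46 in EXT replicate 1 and RC replicate 3 (93.5%, against 89.8%) and 42 of 48 in EXT replicate 2 and RC replicate 3 (87.5%, against 89.4%), so the proteasome genes lay near all genes.

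Proteasome genes often lie close to other genes. Another protein-coding gene ended within 2 kb for 27 of 51 (52.9%), against 32.2% of all protein-coding genes. In EXT replicate 1, EXT replicate 2 and RC replicate 3, 15, 15 and 16 best peaks were shared with a neighbour's window. Shared peaks were not counted for all protein-coding genes, so whether these counts are unusual is not known. Divergent neighbours included Ss18l1 beside Psma7, Sirt3 beside Psmd13, Ftsj3 beside Psmc5 and Mrpl32 beside Psma2. Most proteasome genes were open both with and without a near protein-coding neighbour. Of the 24 proteasome genes without such a neighbour 23 were open in each list (95.8%), against 43.7, 51.6 and 46.1% of all protein-coding genes without one. Of the 27 with one, 85.2, 92.6 and 92.6% were open, against 73.6, 81.3 and 76.9% of all protein-coding genes with one. The gap to all genes was thus smaller among genes with a neighbour.

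Base composition moved with openness over all protein-coding genes, while among proteasome genes the shares open differed less. An observed-to-expected CpG ratio over 0.6 was found in 68.1% of proteasome promoters, against 47.6% of all promoters, and in 0 of 4 specific ones. Of those 4, Psmb9 lay at the cutoff, with a ratio of 0.6. Among genes with such a CpG-rich promoter, 96.8% of proteasome genes were open in each list, against 80.7, 87.6 and 82.9% of all. The proteasome gene counted as closed there was Psma6. It is CpG-rich by its inner promoter, whose start lay inside a peak in each list. Among the 12 CpG-poor proteasome genes 10, 11 and 11 were open in EXT replicate 1, EXT replicate 2 and RC replicate 3, against 25.6, 33.5 and 28.8% of all CpG-poor genes. Most of the 12 lay not far under the cutoff, with highest ratios from 0.508 for Psmd4 to 0.6 for Psmb9. Only Psme2b, Psmb10 and Psmb11 were far lower, at 0.09, 0.192 and 0.165. The CpG-poor proteasome genes and all CpG-poor genes were not matched in ratio. The part of base composition in the higher share of open proteasome genes was not tested beyond this split.

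The 6 motifs were searched on both strands of the printed promoter window. The first was TGACNNNGC, the core of the antioxidant response element, which the proteasome regulator Nfe2l1 binds. The general promoter elements were the CCAAT box, the GC box and the TATA box (TATAAA). The letters searched for the GC box, which members of the Sp family of zinc finger proteins bind, were GGGCGG. The remaining motifs were those of ETS family factors and of the zinc finger protein YY1. The letters searched for ETS factors, which occur in many promoters of housekeeping genes, were CCGGAAG. The letters searched for YY1, which can also direct where transcription starts, were AAGATGG. The ETS motif was found in 37.2% of the 43 proteasome genes, against 12.9% of all protein-coding genes, and the YY1 motif in 18.6%, against 7.18%. The antioxidant response core was found in 14.0%, against 14.8%, in Psmb5, Psmb6, Psmc6, Psmd9, Psmd12 and Psme4. The CCAAT box stood at 37.2% against 42.3%, the GC box at 55.8% against 49.2%, and the TATA box at 9.30% against 14.8%. Within CpG-rich promoters the GC box ran the other way, at 61.3% of proteasome genes against 76.5% of all.

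The ETS motif was unevenly spread over the roles. It was present in 9 of 14 regulatory particle genes, 6 of 14 genes of the other roles, 0 of 4 specific genes and 1 of 11 core genes. The core gene was Psma6, whose inner promoter holds 3 matches and whose closed outer promoter holds none. Within CpG-rich promoters the ETS motif was found in 48.4% of proteasome genes, against 21.1% of all. By role it was there in 8 of 13 regulatory particle genes, 1 of 9 core genes and 6 of 9 genes of the other roles. No specific gene had a CpG-rich promoter, so the 0 of 4 has no such comparison. A match is a run of letters and no measured binding site, and binding was not measured here.

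Genes that work with the proteasome were open about as often. Of 25 further genes of the pathway, 24 were matched, and 20, 22 and 22 were open in EXT replicate 1, EXT replicate 2 and RC replicate 3 (83.3, 91.7 and 91.7%). Nfe2l1, the factor that raises proteasome gene transcription when the proteasome is impaired, had folds of 8.0, 13.71 and 9.69 at percentiles 98.7, 99.7 and 99.3. Its relative Nfe2l2 and Ecpas, which encodes a proteasome adaptor, had no end peak in any list. The regulatory particle gene Sem1 had none in EXT replicate 1 and a fold of 6.93 in EXT replicate 2, against 2.74 in RC replicate 3. Of 9 antigen presentation genes 8, 9 and 7 were open. The shares of all protein-coding genes open in these lists were 53.3, 61.1 and 56.1%.

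Marker genes were counted as a description of the sorted cells. Of all protein-coding genes, 53.3, 61.1 and 56.1% were open in EXT replicate 1, EXT replicate 2 and RC replicate 3. With so few markers per cell type, several counts lie near these shares, such as 50.0% of endothelial markers in EXT replicate 2 and RC replicate 3. Of 6 neuron markers 5, 6 and 4 were open in EXT replicate 1, EXT replicate 2 and RC replicate 3, and of 4 excitatory markers all 4 in each. Rbfox3, which encodes the sorted protein NeuN, had an end peak only in EXT replicate 2, with a fold of 2.16. Of 3 inhibitory markers 2, 0 and 2 were open, of 4 astrocyte markers 1 in each, of 4 oligodendrocyte markers 1, 2 and 1, of 5 microglia and other immune markers 2, 0 and 0, and of 4 endothelial markers 1, 2 and 2. Their part in the openness of the proteasome genes was not tested.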

How the data were processed

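ATAC-seq peak lists of 5 libraries were read, of which 3 were complete. Per the file headers, the authors ran MACS 2.2.4 once per library without a control, keeping duplicates, with a shift of -75 bp, an extension size of 150 bp and a q-value cutoff of 0.05. Per the submitters' processing notes the build was mm10, and the aligner of these reads is not stated there. The deposited pileup is a coverage signal of whole tags, the deposited fold enrichment is a ratio to local background, and the deposited -log10 p-values and -log10 q-values rank how far a peak exceeds it. All are the authors' values and were used to describe or rank peaks within a list. An incomplete last line was dropped from 2 truncated lists.

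Gene ends and promoters came from RefSeq (GRCm38.p6, the same chromosome coordinates as mm10), with strand and start for 17492 genes. Peaks were scored with Python 3.11.15, pandas 2.3.3 and SciPy 1.17.1, and the scoring was tested on simulated peaks. Replicates are pools of 5 mice. No test between groups was run, and intervals are exact (Clopper-Pearson) at 95%. Full values are given for the highest and lowest mean percentile of each role, for members closed in a list and for specific members; Psma1, the inner starts of Psma3, Psma6 and Psmf1, Psmb6, the starts of Psmc1 and Psmc2, Psmc5, Psmc3ip, Psmd1, Psmd4, Psmd12, Psme1 and Psme3ip1, and beyond the members Nfe2l1, Rbfox3, Nlrc5 and B2m, were added after their values were seen. The genes, roles, lists and motifs were chosen with earlier results of these data known. Windows, list cutoffs, peak choice, gene end and libraries were varied, as were members.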

Additional observations from a re-analysis of the deposited data

How the results depend on the processing

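Of 90 alternative values, 80 moved by less than the spread between lists. Some of these could not move. Choosing the best peak by fold enrichment cannot change which genes are open. Leaving out Psmc3ip, Psme3ip1 and Psme2b cannot change the gaps between core, regulatory particle and specific genes. The share of open proteasome genes minus that of all protein-coding genes, 36.0 points as reported, was 39.6 with windows of 500 bp, 30.1 with windows of 2 kb, 39.5 at the 5′ end alone and 40.5 with RefSeq starts in place of gene ends. Core minus regulatory particle, -9.52 points, was -14.3 with windows of 500 bp and 0.0 with RefSeq starts. Core minus specific subunits, 17.1 points, was -0.758 at the 5′ end alone, where the sign turned, and 8.33 with RefSeq starts. Both settings hold only genes with known strand. They leave out, among others, Psma8, closed in every list, and the core gene Psmb7, closed in EXT replicate 1. For the core and specific genes that remain, the 5′ window gave the same open calls as the windows at both ends. EXT minus RC, -1.96 points, was 1.96 where only peaks with -log10 q no lower than 5 were kept and 0.98 with lists of equal length, so its sign turned in both. The use of RefSeq starts, and the removal of Psmc3ip, Psme3ip1 and Psme2b, were chosen after seeing the data. The cause of the other shifts was not tested.

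Leaving out each library in turn gave 34.9 to 37.5 points for proteasome genes minus all, -3.92 to 0.0 for EXT minus RC (no value without RC replicate 3), -10.7 to -7.14 for core minus regulatory particle and 12.9 to 19.3 for core minus specific. The median width difference, 60.0 bp, ranged from 46.8 to 74.3, the log2 fold difference, 0.004, from -0.10 to 0.065, and the percentile difference, -1.81, from -4.62 to 0.444. In EXT replicate 1 the width difference was 31.5 bp as reported, 14.0 with windows of 500 bp and 3.5 with the stricter list. Without Psmc3ip, Psme3ip1 and Psme2b the width difference in RC replicate 3 was 62.5 bp, against 86.5 as reported. No paired analysis was possible because the complete lists of EXT and RC share no replicate number. The number of specific genes (5) and of complete RC lists (1) limit the precision.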

Other observations

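Identical bounds of the best end peak in EXT replicate 1 and RC replicate 3 were seen for 2 proteasome genes, Psma7 (245 bp) and Psmb11 (160 bp). These were 4.35% of the 46 open in both, against 8.73% of all protein-coding genes open in both. The Psma7 peak lay upstream of its start, within Ss18l1. No proteasome gene had identical bounds in EXT replicate 1 and EXT replicate 2, against 2.69% of all, or in EXT replicate 2 and RC replicate 3, against 5.07%.

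Among the antigen presentation genes, Nlrc5, an activator of class I genes, had an end peak in EXT replicate 2 alone, with a fold of 4.45. B2m, the light chain of class I molecules, was open in all lists, with folds of 5.46 and 9.63 in the EXT libraries and 5.43 in RC replicate 3. For B2m, EXT replicate 1 and RC replicate 3 were close to each other, and EXT replicate 2 was higher than both.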
